A study of Ginkgo biloba with 15 samples.

Results

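A small-RNA table of Ginkgo biloba embryos lists 8 names that carry the numbers miR894, miR1511, miR5139 or miR6478, which in other plants have been suspected of being pieces of other RNAs rather than microRNAs. They were found by their numbers alone, with no further digit allowed after the number, and they are 8 of the 361 names listed. The names are ppt-miR894, ptc-miR6478, rgl-miR5139, aof-miR5139b, ppe-miR1511-3p, gma-miR1511, lja-miR1511-3p and mdm-miR1511. Ginkgo biloba is a gymnosperm tree, and its seed embryos go on developing and become dormant after the seed is shed. Embryos of healthy trees growing outdoors were taken in 3 months, September and November of 2015 and the February after them, in 2016. Each month has 3 small-RNA libraries, with no treatment and no genetic change, and the collection month is the only difference that the labels give between them. The labels do not state that the 3 libraries of a month are separate trees or seeds, so the p-values below rest on a spread that may be technical.

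A plant microRNA is cut from a folded hairpin precursor by a Dicer-like enzyme and guides an Argonaute protein to transcripts with a matching site. Transfer RNA and ribosomal RNA are far more abundant in the cell, and when they break down they leave pieces in the same range of lengths. Such pieces can enter a microRNA catalogue when a hairpin was accepted on weak evidence. Each catalogue name starts with a code for the species in which it was described, which here is a moss (ppt), poplar (ptc), Rehmannia (rgl), asparagus (aof), peach (ppe), soybean (gma), Lotus (lja) or apple (mdm). A read of Ginkgo can therefore be listed under several foreign names at once. In common bean, miR1511 has been studied as a microRNA that targets a transcript linked to aluminium tolerance. The table gives names and counts without sequences, and whether the reads come from a microRNA hairpin could not be examined here.

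The libraries held 90008 to 1269029 counts under all names, with the fewest in November 2 (90008), February 3 (149187) and September 2 (221070). These totals are counts listed under microRNA names and not the depth of the whole library. Abundance is given in CPM, counts scaled to a library total of 1000000. Where a name had 0 counts, up to 3 counts remain possible, which is 2.36 to 33.3 CPM depending on the library. These limits and all intervals below cover counting error only.

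Of the 4 miR1511 names, 3 were nearly empty. The soybean name gma-miR1511 and the Lotus name lja-miR1511-3p held the same 9 counts, namely 1 in February 1, 2 in February 2 and 0 in the other libraries. The apple name mdm-miR1511 held 1 count, in February 2. The peach name ppe-miR1511-3p held 2341 counts and was present in all 9 libraries. The counts of the number miR1511 in this table are thus almost wholly those of the peach name.

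The peach miR1511 name shared its counts with the miR5139 names and not with the other miR1511 names. ppe-miR1511-3p held 46, 203 and 34 counts in September 1, 2 and 3, then 177, 558 and 33 in November, and 156, 855 and 279 in February. aof-miR5139b held 43, 203 and 34 counts in September, 177, 557 and 33 in November, and 156, 854 and 281 in February. rgl-miR5139 held 47, 204 and 36 counts in September, 184, 563 and 33 in November, and 163, 878 and 280 in February. The 3 names were high and low in the same libraries, with rgl-miR5139 equal to the others or slightly ahead in all but February 3.

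The papaya name cpa-miR8155, which is outside the 4 numbers, held these counts too. It was equal to ppe-miR1511-3p in 8 of 9 libraries and differed by 1 count in the ninth, 0.0427% of the larger total of the pair. ppe-miR1511-3p and aof-miR5139b were equal in 5 libraries, and their differences summed to 7 counts, 0.299% of the larger total. rgl-miR5139 differed from ppe-miR1511-3p by 47 counts in sum, or 1.97%, with the largest gap, 23 counts, in February 2. Against gma-miR1511, ppe-miR1511-3p differed by 99.9%. The differences of 0 to 3 counts between ppe-miR1511-3p, aof-miR5139b and cpa-miR8155 were smaller than the counting error of any of these values. That error is one of separate draws, and names that may list the same reads are not separate draws. The comparison therefore does not show where the differences come from. In February 2 the 855 counts of ppe-miR1511-3p, 2273 CPM, had a 95% Wilson interval of 2126 to 2430 CPM.

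No other names of different numbers held nearly the same counts in this search. Among the 139 names with at least 100 counts in all, 67 pairs had summed differences of at most 5% of the larger total. Of these, 62 pairs joined names of the same number, as variants of 1 family do. The other 5 pairs joined different numbers, and all 5 lay among ppe-miR1511-3p, aof-miR5139b, rgl-miR5139 and cpa-miR8155. The nearest name outside the 4 differed from rgl-miR5139 by 71.6%. ppt-miR894 and ptc-miR6478 had no such partner, and their nearest other names differed by 81.1% and 62.3%. Names with the same 9 counts are otherwise common here, at 149 of 361, and among the 8 names only the soybean and Lotus miR1511 names are among them.

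**Figure D1:**
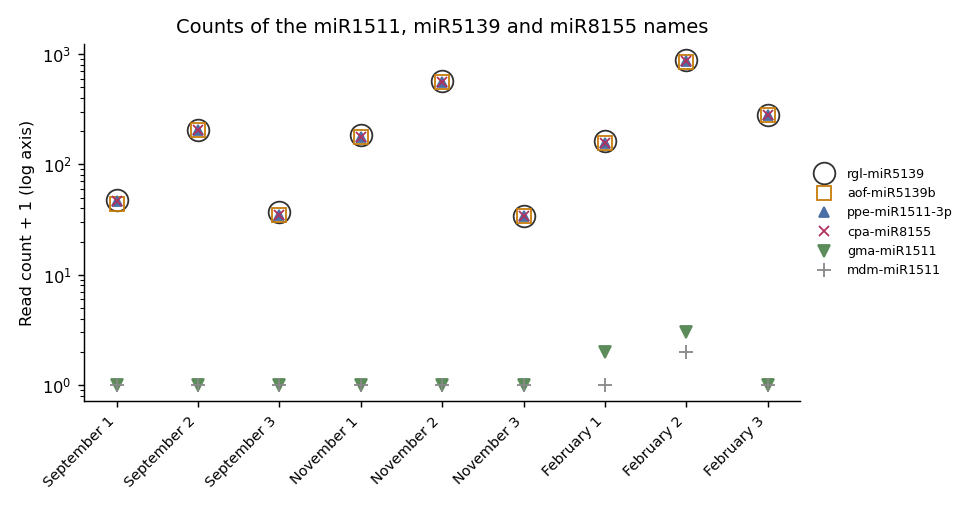
Read count plus 1 on a log axis for 6 names in each of the 9 libraries, where each symbol is 1 name. The symbols of rgl-miR5139, aof-miR5139b, ppe-miR1511-3p and cpa-miR8155 fall on each other in every library, while gma-miR1511 and mdm-miR1511 lie at 0 to 2 counts; lja-miR1511-3p has the same counts as gma-miR1511.

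The moss name ppt-miR894 was the most abundant of the 8 on average and ranked 19th of all names by mean CPM. It stood at 863, 2967 and 851 CPM in September 1, 2 and 3. In November it stood at 963, 23320 and 953 CPM, and in February at 1969, 1765 and 80490 CPM. The other libraries lay between 851 and 2967 CPM, and November 2 and February 3 stood far above them. The February 3 value rested on 12008 counts, 61.4% of all counts of this name, with a Wilson interval of 79120 to 81881 CPM. In raw counts the other 8 libraries held 411 to 2099, so February 3 was highest before any scaling as well.

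The poplar name ptc-miR6478 stood at 8016, 15072 and 697 CPM in September, at 2906, 13577 and 599 CPM in November, and at 1617, 1709 and 30720 CPM in February. February 3 was again the highest library, and September 3 and November 3 were the lowest. Its counts were less concentrated than those of miR894, with 23.9% of them in February 3. The months overlapped throughout, since the lowest September library lay below every February library and the next lay above 2 of them.

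rgl-miR5139 stood at 98.7, 923 and 50.4 CPM in September, at 145, 6255 and 34.3 CPM in November, and at 326, 2334 and 1877 CPM in February. Its highest library was November 2 and its lowest November 3, so the whole range of 182-fold lay within 1 month. The range over the 9 libraries was 94.6-fold for ppt-miR894 and 51.3-fold for ptc-miR6478. aof-miR5139b and ppe-miR1511-3p followed rgl-miR5139 and ranged over 180-fold and 181-fold.

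**Figure D2:**
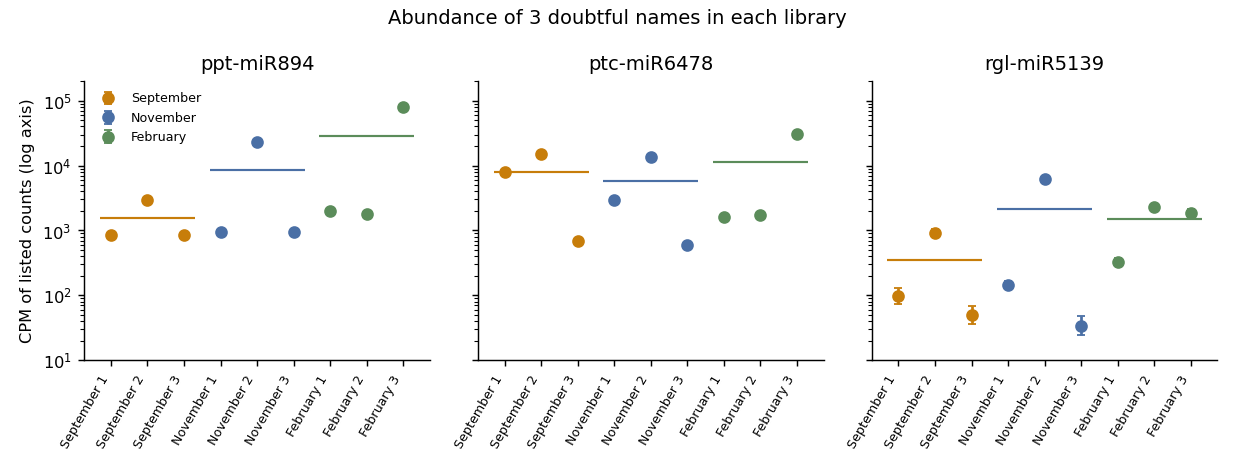
CPM of listed counts on a log axis in each library for ppt-miR894, ptc-miR6478 and rgl-miR5139, where points are libraries with 95% Wilson intervals (mostly hidden by the points) and lines are means of 3 libraries. The November mean of each name is pulled up by November 2, and the February means of ppt-miR894 and ptc-miR6478 by February 3.

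The names did not keep a fixed ratio to each other. The count of ppt-miR894 was 0.108 of that of ptc-miR6478 in September 1 and 2.62 times it in February 3. Against rgl-miR5139, ppt-miR894 was 0.756 times as frequent in February 2 and 42.9 times in February 3. ptc-miR6478 ranged from 0.732 to 81.2 times the count of rgl-miR5139, in February 2 and September 1. The correlation of log2(CPM + 1) over the 9 libraries was 0.75 between ppt-miR894 and ptc-miR6478, 0.76 between ppt-miR894 and rgl-miR5139 and 0.66 between ptc-miR6478 and rgl-miR5139. These correlations are descriptions, and all points share the library total in their denominators.

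Spread between libraries of the same month was large for all 4 numbers. The within-month SD of log2(CPM + 1) was 2.73 for miR5139, 2.72 for miR1511, 2.45 for miR894 and 2.34 for miR6478. Among the 35 numbers that reached 10 counts in 3 or more libraries, the median of this SD was 1.61, and the 4 numbers ranked 5th, 7th, 9th and 10th. Among the 23 conserved families that passed the same minimum, the median was 1.08 and the highest was 2.55. The highest was that of miR536, above miR894 and miR6478. The ranks of miR5139 and miR1511 rest on nearly the same counts. Month took up 21% of the variance of rgl-miR5139, 18.5% for ppt-miR894 and 2.23% for ptc-miR6478. The number in the library title, which runs from 1 to 3 in each month, took up 54.6%, 17.1% and 11.7%. The rest, 86.1% for ptc-miR6478 and 64.4% for ppt-miR894, followed neither. With 9 libraries in 3 groups, any grouping takes up a sizeable part of the variance even where it has no bearing. No baseline was computed, so these percents are descriptions and do not show an effect of month or number.

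No member changed between months past the threshold. The count minimum was passed by 5 of the 8 names and missed by the 3 nearly empty miR1511 names. With edgeR, 0 of the 5 were called in each of the 3 comparisons, and the background was 0 of 145 names called (0%) in each. Before adjustment, 2, 5 and 7 of the 145 names had a p under 0.05 in November against September, February against November and February against September. ppt-miR894 was among the last 7. DESeq2 called 0 of the 5 in each comparison, against 0%, 2.76% and 3.45% of all names. It gave no p for ppt-miR894, so that name could not be called by it. With the replicate block, in which the number in the library title enters the fit, edgeR called 0 of the 5 as well, against 0%, 0% and 3.45% of all names.

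Summed by number, miR894 had a mean of 1560 ± 1218 CPM over the September libraries, 8412 ± 12911 over those of November and 28075 ± 45393 over those of February (SD, n = 3), and the SD was above the mean in November and February. The log2 fold change from September to February was 3.78 (SE 1.56, edgeR adjusted p = 0.32 over 35 numbers). Of these 35 numbers, 1 was called (2.86%), and it was not a member. Without February 3 the log2 fold change of miR894 was 0.5, and with both November 2 and February 3 left out it was 0.52. From September to November miR894 differed by 1.93 (SE 1.44, edgeR adjusted p = 0.88) and from November to February by 1.85 (SE 1.44, edgeR adjusted p = 0.82). Each of these directions turned when 1 library was left out, to −0.26 without November 2 and to −1.42 without February 3. With the replicate block miR894 differed by 3.08 from September to February (SE 1.84, edgeR adjusted p = 0.37). With the block it differed by 1.35 from September to November (SE 1.51, edgeR adjusted p = 0.91) and by 1.73 from November to February (SE 2.03, edgeR adjusted p = 0.62).

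miR6478 had a mean of 7928 ± 7188 CPM for September, 5694 ± 6923 for November and 11349 ± 16776 for February (SD, n = 3). Its log2 fold change from September to February was 0.13 (SE 1.29, edgeR adjusted p = 0.92), and −2.05 without February 3. With the block it was 0.45 (SE 2.29, edgeR adjusted p = 0.86). It differed by −0.85 (SE 1.3, edgeR adjusted p = 0.89) from September to November and by 0.97 (SE 1.3, edgeR adjusted p = 0.82) from November to February. The last value became −1.21 without February 3.

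rgl-miR5139 had a mean of 357 ± 490 CPM for September, 2145 ± 3560 for November and 1512 ± 1052 for February (SD, n = 3). The sum of the 2 miR5139 names differed by 2.16 (SE 1.61, edgeR adjusted p = 0.88) from September to November and by −1.39 without November 2. From September to February it differed by 2.19 (SE 1.61, edgeR adjusted p = 0.53), and from November to February by 0.03 (SE 1.54, edgeR adjusted p = 0.99). Between libraries of the same number, rgl-miR5139 was higher in February than in September in all 3 pairs, at 326 against 98.7, 2334 against 923 and 1877 against 50.4 CPM. With the replicate block the miR5139 sum differed by 3.0 from September to February (SE 1.15, edgeR adjusted p = 0.15), which did not pass the threshold. Before adjustment over the 35 numbers its edgeR p-value was 0.036. With the block it differed by 1.76 from November to February (SE 1.2, edgeR adjusted p = 0.58) and by 1.24 from September to November (SE 1.06, edgeR adjusted p = 0.91). The miR1511 sum gave 2.16, 2.19 and 0.03 from September to November, September to February and November to February without the block, since its counts are nearly those of a miR5139 name. The miR1511 and miR5139 values are therefore 1 result and not 2. With standard errors of 1.29 to 1.63 without the block, differences of several fold in either direction were not detectable.

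Together the 8 names took 0.165% to 11.7% of the listed counts, a range of 70.6-fold. In September 1, 2 and 3 the share was 0.916%, 2.08% and 0.169%. In November it was 0.429%, 5.55% and 0.165%, and in February 0.454%, 1.04% and 11.7%. The Wilson interval was 11.5% to 11.8% in February 3 and 0.158% to 0.174% in November 3. Monthly means were 1.06% ± 0.963, 2.05% ± 3.04 and 4.39% ± 6.32 (SD, n = 3), and the SD reached or passed the mean in November and February. Without its highest library the mean was 0.543% in September (without September 2), 0.297% in November (without November 2) and 0.745% in February (without February 3). In November 2 the near-equal names took part of this share several times over. When ppe-miR1511-3p, aof-miR5139b and rgl-miR5139 were counted once, the share there was 4.37% in place of 5.55%, and in February 2 it was 0.585% in place of 1.04%. Names outside the 8 that repeat counts, cpa-miR8155 among them, stayed in the total.

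**Figure D3:**
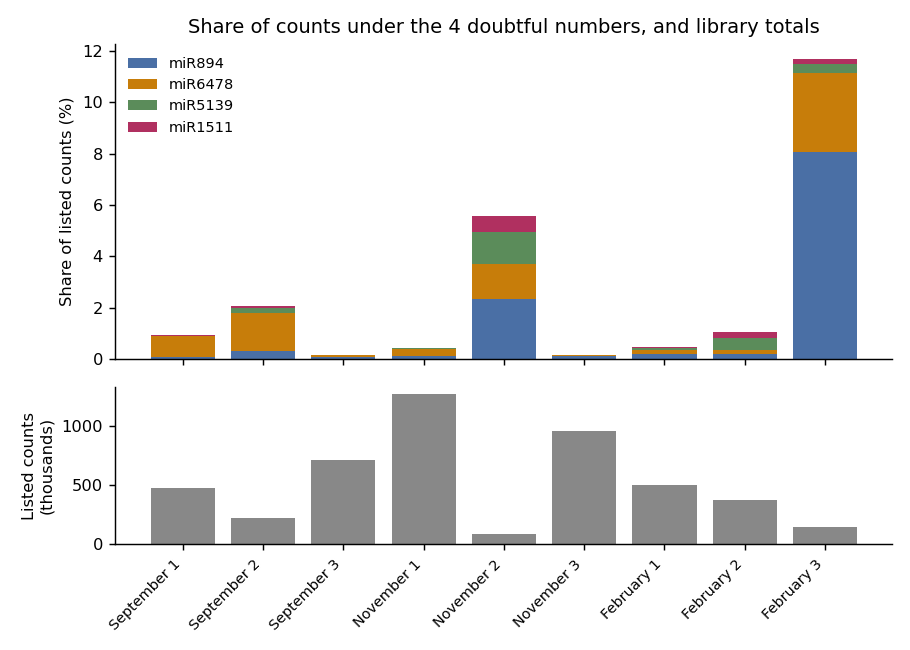
Upper bars give the percent of listed counts under miR894, miR6478, miR5139 and miR1511 in each library, stacked, and lower bars give the listed total (axis in units of 1000 counts). November 2 (5.55%) and February 3 (11.7%) have the highest shares and the 2 lowest totals.

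In each month the library with the fewest listed counts, which was September 2, November 2 and February 3, had the highest share. ppt-miR894 and ptc-miR6478 were highest in these same libraries, and rgl-miR5139 was so in September and November but not in February, where February 2 lay above February 3. Over the 9 libraries, log2 CPM and the log2 count under other names (the 8 names and cpa-miR8155 taken out) had a Pearson r of −0.86 for ppt-miR894, −0.78 for ptc-miR6478 and −0.86 for rgl-miR5139. Spearman's rho was −0.75, −0.75 and −0.82 in the same order. CPM has the library total in its denominator, so it falls as the total rises wherever a name's own count does not keep pace. The denominator alone does not fix the sign, since rho was 0.6 for miR159. The values of the 3 names are given as descriptions only, and they were looked at after the abundances were seen. With raw counts in place of CPM, r was −0.53, −0.27 and −0.61 and rho was −0.27, −0.37 and −0.72.

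November 2 and February 3 are the 2 libraries farthest from the median of the log2 count under other names. Without them, over 7 libraries, r with CPM was −0.79 for ppt-miR894, −0.62 for ptc-miR6478 and −0.72 for rgl-miR5139. Spearman's rho was weaker, at −0.5, −0.57 and −0.68 in the same order. A month holds 3 libraries, too few for a value within it, and libraries of the same number also resemble each other. The part of library size in the differences between libraries was not tested.

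Low values of rho were found for other numbers too. Spearman's rho between CPM and the count under other names was −0.75 or lower for 8 of the 35 numbers. These were miR894, miR6478, miR5139 and miR1511 together with miR8155, miR4995, miR8175 and miR6300. None of the 23 conserved families was among them, but the lowest, miR394 at −0.717, lay close to the cut. The cut of −0.75 equals the weakest value of the members, that of miR894 and miR6478. All members therefore pass it, and the contrast with the conserved families depends on that cut. Negative values of rho were found for 27 of the 35 numbers. miR5139, miR1511 and miR8155 hold nearly the same counts and are not separate cases. The values describe these 9 libraries, share the total in their denominators, and are weakened by low counts.

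**Figure D4:**
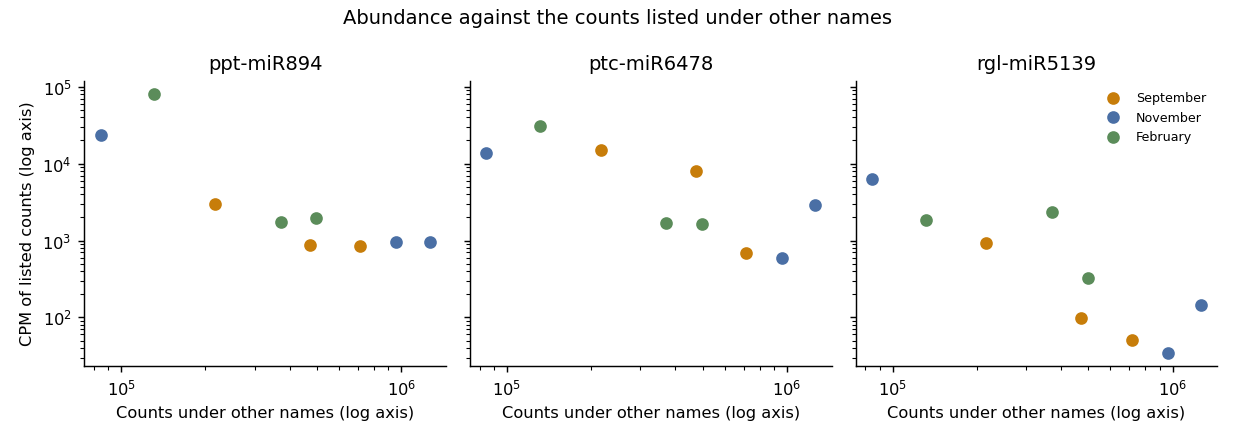
CPM of ppt-miR894, ptc-miR6478 and rgl-miR5139 (log axis) against the counts listed under other names (log axis), where each point is 1 of 9 libraries coloured by month. The libraries with the fewest counts, November 2 and February 3, lie at the upper left for ppt-miR894, with a Pearson r of −0.86.

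The names most like the members over the 9 libraries were mostly low in counts. By Pearson correlation of log2(CPM + 1), ppt-miR894 was closest to ath-miR8175 (0.96), pab-miR3711 (0.96) and gma-miR6300 (0.88). ath-miR8175 stood at 2.36 to 54.3 CPM in 7 libraries, at 655 CPM in November 2 and at 3398 CPM in February 3. pab-miR3711 stood at 589 CPM in November 2 and 1414 CPM in February 3, and at 6.3 to 113 CPM elsewhere. Both had their 2 highest libraries where ppt-miR894 had its own. ptc-miR6478 was closest to gma-miR6300 (0.85), pab-miR3711 (0.77) and the predicted novel_10 (0.74). rgl-miR5139 and ppe-miR1511-3p were closest to cpa-miR8155 (1.0 for both), whose counts they share, then to gma-miR4995 (0.87 for both) and to pab-miR536b (0.83 for both), which has the same counts as ppt-miR536f.

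Another 11 numbers that have been suspected in other plants of being pieces of other RNAs were looked up as well, and 6 of them were in the table. miR8175 held 628 counts and miR6300 held 417, while miR6173, miR5077, miR2916 and miR5368 held 95, 51, 6 and 1. February 3 held 80.7% of the miR8175 counts, 92.2% of those of miR5077, 38.9% of those of miR6173 and 31.7% of those of miR6300. By comparison, February 3 held 61.4% of miR894 and 11.9% of miR5139 counts. That library had 149187 listed counts, among the fewest, where the 9 libraries ranged from 90008 to 1269029. These percents are therefore not to be read against an even split between libraries. All 6 suspected numbers together were far below ppt-miR894, with 19568 counts, and ptc-miR6478, with 19166.

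In February 3, 2 of the members ranked high among the numbers. Each rank and share here rests on counts summed over the names of a number. miR894 is 1 name, while a family can list the same read under several names. gma-miR319c and gma-miR319q, for example, differed by 0.0058% of the larger total. Such repeats raise the family sums, so ranks and shares of listed counts are not those of single reads. miR894 was the third most frequent number there, at 8.05% of listed counts, above miR319 at 6.33%. miR319, known in other plants for cutting TCP transcription factor transcripts, was above miR894 in the other 8 libraries. miR894 ranked 6th in November 2 and 11th to 17th in the other 7 libraries. miR6478 ranked 5th in February 3 and 8th to 18th elsewhere.

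Shares of conserved families are higher by construction when the 8 names are taken out of the total, by the same factor for every family of a library. The factor was 1.13 in February 3, 1.06 in November 2 and 1.02 or less in the other 7 libraries. The largest change was that of miR159, which in other plants cuts MYB transcription factor transcripts, from 41.4% to 46.9% in February 3, a rise of 5.48 percentage points. In November 2 it went from 36.4% to 38.6%, and its next largest shift was 1.003 percentage points, in September 2. miR166, whose targets in other plants are class III homeodomain-zipper transcripts, went from 29.1% to 32.9% in February 3. miR319 went from 6.33% to 7.17% there. miR162, which targets the Dicer-like transcript in other plants, and miR396, whose targets in other plants are growth-regulating factor transcripts, moved by 0.231 percentage points or less in every library.

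The monthly means of these 5 families moved by less than their SD over 3 libraries, but whether 2 months overlapped changed for 4 of them. The mean share of miR159 in February was 37.9% ± 3.66 with all names and 39.9% ± 6.43 without the 8 (SD, n = 3). In September it was 47% ± 0.781 and 47.5% ± 1.14. With all names every February library lay below every September library, and without the 8 names February 3 (46.9%) lay above September 3 (46.2%). miR166 moved the other way. Its February share was 43.5% ± 12.6 with all names and 45% ± 10.6 without, and its months September and February overlapped with all names and were separate without the 8, where February 3 (32.92%) lay just above September 1 (32.64%). miR319 in February and November was separate with all names, 6.33% in February 3 against 6.38% in November 1, and overlapped without them, at 7.17% against 6.4%. For miR396 the separation of September from both other months was also lost. miR319 in February lay below September either way, at 3.84% ± 2.16 against 12.3% ± 3.88 with all names and 4.13% ± 2.63 against 12.5% ± 3.98 without. No test was made on these shares.

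**Figure D5:**
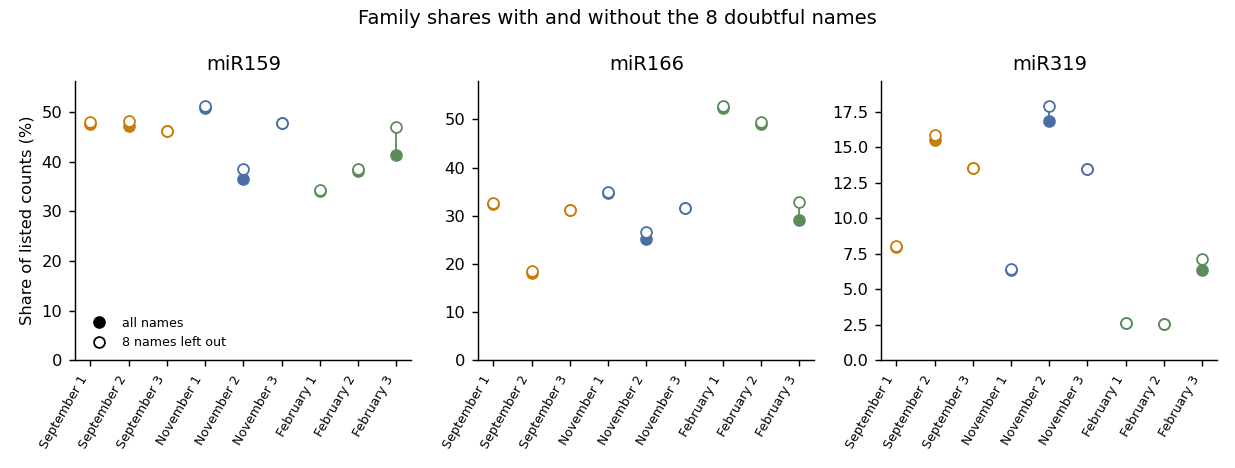
Percent of listed counts under miR159, miR166 and miR319 in each library, with all names (filled) and with the 8 doubtful names taken out of the total (open), joined by a line. The points part visibly only in November 2 and February 3, by up to 5.48 percentage points for miR159.

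In the edgeR fits the 8 names also entered the scaling. TMM, the scaling that edgeR uses, measures each library against a reference library that it picks from the data. With all names the reference was February 2, and with the 8 names left out it was November 2, the library with the fewest counts. The TMM factor of November 3 went from 0.841 to 1.34 and that of September 2 from 1.25 to 0.925. When the 8 names were left out but February 2 was kept as the reference, the factor of November 3 was 0.808 and that of September 2 was 1.21.

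The log2 fold changes of the 23 conserved families moved accordingly. From September to February they shifted by a median of 0.45 when the names were left out, and by 0.09 with the reference kept. From November to February the medians were 0.35 and −0.04, and from September to November 0.09 and 0.13. miR319 was the conserved family called from September to February with all names, at −1.88 (SE 0.41, edgeR adjusted p = 0.039). Without the 8 names it was at −1.54 (SE 0.4, edgeR adjusted p = 0.057), and with the reference kept at −1.8 (edgeR adjusted p = 0.023). Leaving out names also reduced the numbers tested from 35 to 31.

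With the replicate block the count of called families moved more. From September to February it was 3 with all names (8.57% of the 35 numbers), 6 with the 8 names left out and 3 with them left out and the reference kept. Without the 8 names 31 numbers were tested, and 23 conserved families were among those tested either way. The 6 were miR319, miR2950, miR11534, miR156, miR529 and miR1083, and their edgeR adjusted p was 0.039 for all but miR1083, at 0.042. With all names and November 2 as the reference, 0 families were called, with an edgeR adjusted p of 0.091 for miR319, miR2950, miR156, miR529 and miR1083 and 0.1 for miR11534. From November to February the counts in the same order were 1 (2.86%), 0, 2 and 0, and from September to November they were 0 each time.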

How the data were processed

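Small-RNA libraries of Ginkgo biloba embryos, 3 from each of 3 months, were analysed, and the 6 mRNA libraries were not used here. Per the file headers, the table the authors deposited holds read counts for each microRNA name, and the values are whole and unscaled. Tools named in the submitters' processing notes, with no roles, are Bowtie, HTSeq 0.6.1, TopHat2 2.0.12 and CASAVA 1.8. Not given in the sources used here are the microRNA catalogue, the mismatches allowed and the counting of a read that matches several names. Each of these choices can change how often 1 read is listed. Every column of the table was used.

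Names were tested with edgeR 4.0.16 in R 4.3.3, with TMM factors, its quasi-likelihood test and a model of month over all 9 libraries. A name needed 10 counts or more in 3 or more libraries, which 145 met. Counts summed over names of the same miR number were tested with the same library sizes under the same minimum, without predicted names, which left 35 numbers. Adjusted p-values follow Benjamini and Hochberg and cover all names or numbers tested, with a threshold of 0.05. SE is that of the log2 fold change, from the F statistic. Correlations and Wilson intervals were computed in Python with scipy 1.17.1. The edgeR step was tested on simulated data with known changes, placed only in names above the median abundance. The spread there was a fixed setting and not that of the members, so it does not show what could be detected for them. DESeq2 1.42.0 was an alternative.

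The members, the 35 conserved families (23 of them tested), the 11 other suspected numbers and the tests were chosen with earlier results of these data known. All 8 names are accounted for. The 3 names most like the most abundant member of each number, and the 5 conserved families with the largest mean shares, were named by rule, with families whose call differed without the members.

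Titles number the libraries 1 to 3 within a month. After the mean of each month was removed, the correlation across names was 0.38 to 0.9 in the 9 pairs of libraries that share a number. All exceeded the set minimum of 0.1. In the 18 pairs of libraries of different months and numbers it was −0.82 to 0.78, and 4 exceeded 0.1. The numbers were taken to pair the libraries in the replicate block, on these values and not on a label. The main fits used month only, so their values leave this pairing out, and the block is an alternative beside them.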

Additional observations from a re-analysis of the deposited data

How the results depend on the processing

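No member name was called in any of 23 alternatives in any comparison, and no sum by number either. Of the 12 log2 fold changes of sums, 4 kept their direction in all alternatives, namely those of miR894, miR1511 and miR5139 from September to February and that of miR6478 from September to November. The other 8 turned in at least 1 alternative. In November to February, the log2 fold changes of miR1511 and miR5139, 0.03 for both, turned to −0.40 and −0.40 with RLE factors, −0.51 and −0.51 with total counts only, −0.49 and −0.48 with no filter on low counts, −0.40 and −0.40 with DESeq2, −0.27 and −0.27 with only the 2 months compared, −0.017 and −0.012 with equal rows counted once, −1.15 and −1.15 without the libraries numbered 3, −0.052 and −0.050 with the members and miR8155 left out of library sizes, and −0.030 and −0.028 with the other TMM reference. miR6478 from September to February, 0.13, turned to −0.20 with RLE factors and with DESeq2, −0.79 with upper quartile factors, −0.060 with only the 2 months compared, −2.7 without the libraries numbered 3 and −2.03 without November 2 and February 3. From November to February, miR894 was at −2.52 and miR6478 at −2.18 without the libraries numbered 3, and miR6478 at −0.29 without November 2 and February 3. Without these last libraries miR894, miR1511 and miR5139 from September to November were at −0.27, −1.41 and −1.39. DESeq2 gave miR894 values of 2.25, 1.22 and 3.47 for September to November, November to February and September to February, with no p. The cause was not tested.

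With a single library left out, the log2 fold change from September to November was −0.26 to 2.74 for miR894, −1.41 to 3.93 for miR1511 and −1.39 to 3.95 for miR5139. From November to February it was −1.42 to 4.07 for miR894, −1.29 to 3.61 for miR1511, −1.29 to 3.6 for miR5139 and −1.21 to 1.89 for miR6478. From September to February it was −2.05 to 0.83 for miR6478 and 0.5 to 4.54 for miR894, 1.44 to 3.95 for miR1511 and 1.45 to 3.97 for miR5139. For miR6478 from September to November it was −1.73 to −0.30.

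The count of conserved families called from September to February, 1 with all names, was 0 with upper quartile factors, total counts only, no filter, the libraries numbered 3 left out, the member names left out, the members and miR8155 left out of library sizes, and the other TMM reference, 2 with only the 2 months compared and 3 with DESeq2. From November to February, 0 with all names, it was 1 with RLE factors, DESeq2, equal rows counted once and the member names left out with the TMM reference kept. With a library left out it was 0 to 2 and 0 to 1. With the replicate block it was 3 from September to February and 1 from November to February. With the block it was 6 and 0 without the member names, 3 and 2 without them and with the reference kept, and 0 from September to February with the other reference or with the members and miR8155 left out of library sizes. The block changed no call of a member.

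The largest change of a family share, 5.48 percentage points, was 1.23 with the strongest name of each family in place of the sum and 1.003 without November 2 and February 3, and 2.14 to 5.48 with a library left out. Depth limits the low names most, since 3 counts were 33.3 CPM in November 2. The alternatives that leave out November 2 with February 3, set library sizes without the members, count near-equal names once or fix the TMM reference were chosen after seeing the data.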
